A study of Homo sapiens with 12 samples.

Results

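HSD11B1, NR3C1, FKBP5, TSC22D3, PER1 and KLF9 form a short pathway from the enzyme that makes active cortisol inside a cell, through the receptor that reads it, to genes that this receptor is known to switch on. These 6 genes were taken by symbol from the 78932 genes of the deposited tables, where each of the symbols occurs 1 time. The set was selected on measured values of these same 12 libraries. Which values these were is not stated. Results known by then included the fall of HSD11B1 in CE against LPS, so the values of all 6 are given as a description, with calls that are counted but not read as support. Of the 6 genes, 5 had enough counts to enter the fit across all genes, and PER1 did not.

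Messenger RNA was sequenced in 12 libraries of THP-1, an established human monocytic leukaemia line, in 4 groups of 3 libraries. Cells of the NC group had no treatment. Those of the LPS group were given LPS, a bacterial outer membrane lipid sensed by TLR4, and ATP, a danger signal sensed by P2X7, to model pyroptosis, a lytic and inflammatory form of cell death. The CE group received LPS and ATP with CsA (cyclosporin A, a calcineurin inhibitor) and Eltrombopag (a thrombopoietin receptor agonist that also binds iron). The CEL group received LPS, ATP, CsA and Eltrombopag with Luspatercept, a trap for some ligands of the TGF-beta family. LPS and ATP are thus shared by 3 of the 4 groups, and no group received CsA with Eltrombopag alone. The labels name no doses or times, and nothing says that the 3 libraries of a group came from separate cultures, so every test measures only the spread between these samples. Each library held 17737240 to 23183474 estimated counts. The columns of CE were matched to that group as the remaining one, so each CE value rests on that match.

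Cortisone, the inert form of the human glucocorticoid, is turned back into cortisol in the endoplasmic reticulum by HSD11B1, which draws its NADPH from the neighbouring enzyme H6PD. Cortisol binds the glucocorticoid receptor NR3C1, which waits in the cytosol in a complex with HSP90 and co-chaperones, then moves to the nucleus and binds DNA. In monocytes and macrophages the ligand-bound receptor is known to restrain inflammatory genes and to switch on FKBP5, TSC22D3, PER1 and KLF9. FKBP5 is a co-chaperone that lowers the receptor's affinity for cortisol, TSC22D3 (also called GILZ) is a leucine zipper protein that curbs NF-kB and AP-1, PER1 is a repressor of the circadian clock, and KLF9 is a zinc finger transcription factor. The data hold RNA only, so neither cortisol nor receptor protein was measured.

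Some libraries stood apart from others of their group. In CE 2, 20.2% of tested genes lay over 1.5-fold above both other CE libraries, against 1.91% to 6.95% in the other 11 libraries, and the share was 56.9% in the fifth of genes with the most GC-rich transcripts against 2.79% in the fifth with the least. In NC 3 and LPS 1, 6.56% and 4.73% of counts fell on 3 genes without a symbol, against at most 0.043% elsewhere, which lowers the TPM of every other gene there. As a check of the cell type, all 10 monocyte markers were detected in every group, with summed levels of 1320 to 1370 CPM in NC, 1790 to 1870 in LPS, 2210 to 2370 in CE and 2140 to 2200 in CEL. PTPRC was the largest part of that sum outside NC, while LYZ, the largest part in NC, averaged 595.3, 142, 27.7 and 20.3 CPM in NC, LPS, CE and CEL. Lymphocyte markers summed to between 2.26 and 7.1 CPM in every library, most of it NKG7, and CD3E was at 0 in LPS, CE and CEL. In bulk RNA, fewer cells of a type and less RNA per cell cannot be told apart.

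Many genes differed between any 2 groups, and the calls below are read against that background. A gene is called higher or lower where its adjusted p is under 0.05 in edgeR's quasi-likelihood test with Benjamini-Hochberg adjustment over 14065 genes. LPS differed from NC at 45.9% of genes, with 22.4% higher and 23.5% lower, and 3 of the 5 tested members were higher and 1 lower. CE differed from LPS at 49.6%, with 28.8% higher and 20.7% lower, and again 3 members were higher and 1 lower. CEL differed from LPS at 55.9%, with 28.7% higher and 27.2% lower, and 2 members were higher and 1 lower. CEL differed from CE at 23.6%, with 8.78% higher and 14.8% lower, and 1 member was higher and 2 lower. Against NC, CE differed at 64.0% of genes (34.6% higher, 29.4% lower), with 4 members higher and 1 lower. CEL against NC differed at 67.0% (34.0% higher, 33.0% lower), with 3 members higher and 1 lower. These member counts say nothing about the pathway, since the members were picked with such results known. LPS against NC and CE or CEL against LPS use the same 3 LPS libraries, so an LPS level that is high by chance raises the first and lowers the others.

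HSD11B1 showed the largest fold changes of the 5 tested members in LPS against NC and in CE and CEL against LPS. Levels are in CPM, counts scaled to the TMM-adjusted size of each library. The NC libraries held 33.6, 34.3 and 34.5 CPM. In LPS the 3 libraries held 115.5, 121.3 and 117 CPM, the highest of any group. In CE they held 3.35, 3.47 and 3.33 CPM, and in CEL 2.21, 3.06 and 2.31 CPM. No library of one group fell within the range of another, and the order from the highest was LPS, NC, CE and CEL. The counts behind these levels were 2352 to 2635 per LPS library but only 68 to 72 in CE and 43 to 61 in CEL.

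Expressed as changes, HSD11B1 was 3.45-fold higher in LPS than in NC (log2 change 1.79 ± 0.09, SE). It was 34.8-fold lower in CE than in LPS (log2 -5.12 ± 0.10), the 38th largest fall among the 6334 genes with a negative change. In CEL it was 46.7-fold lower than in LPS (log2 -5.55 ± 0.11). The levels under drugs were also below the untreated level, 10.1-fold lower in CE and 13.5-fold lower in CEL than in NC. The further difference of CEL from CE was small, log2 -0.42 ± 0.11 with a 95% interval of -0.65 to -0.19. That last call was lost under 11 of 15 alternative settings, including 5 of the 6 that left out 1 library, with the direction kept in each. The plot of member levels by library shows the 4 groups of each gene.

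**Figure D1:**
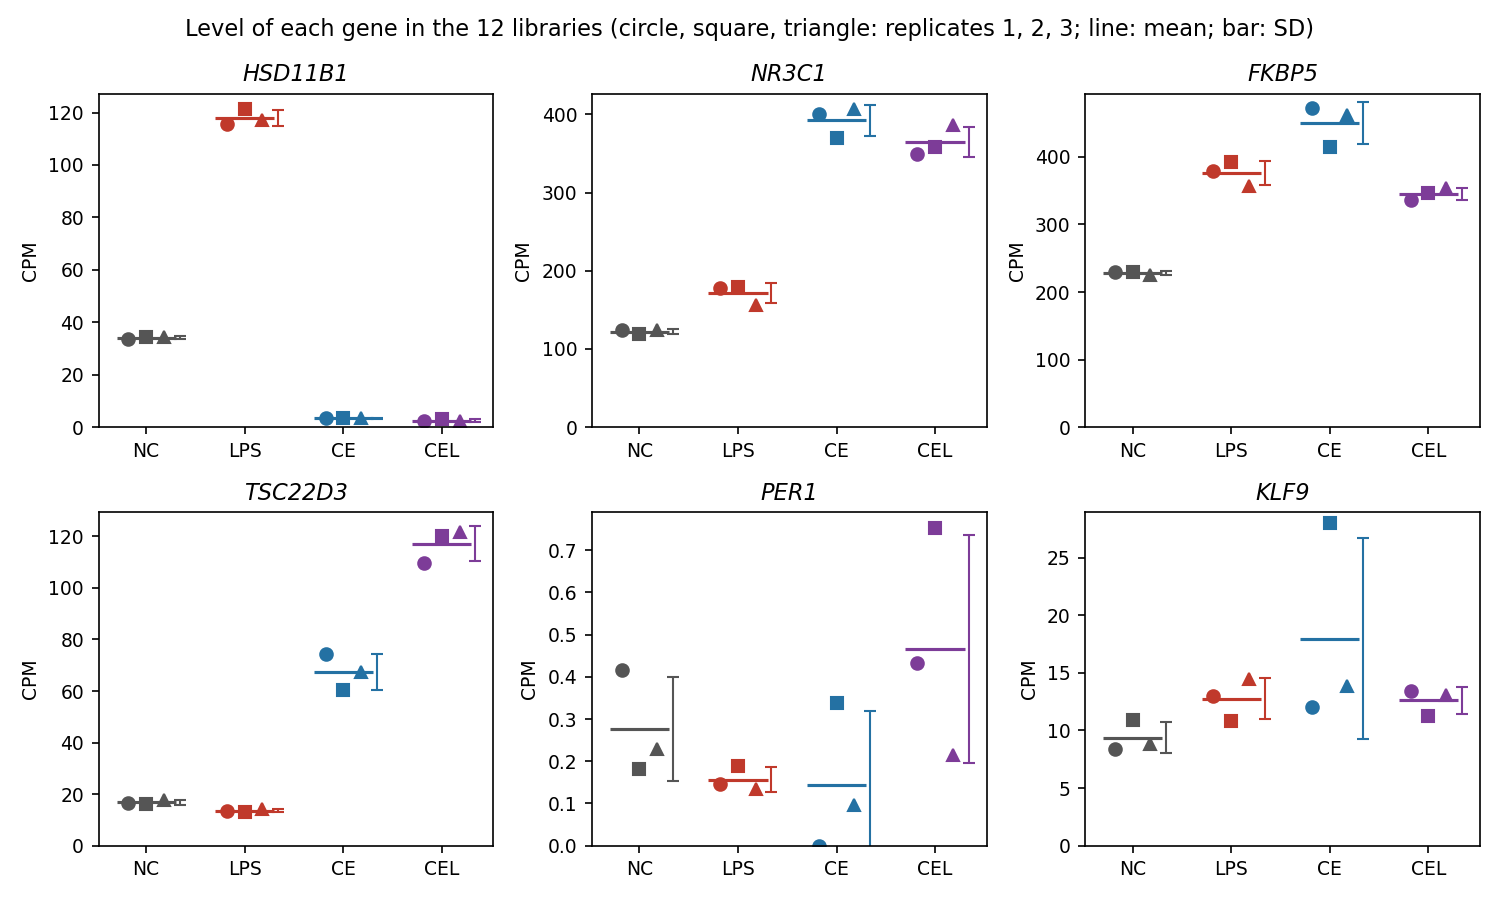
Level in CPM (vertical axes, linear, each starting at 0) of the 6 genes in the 12 libraries, by group; symbols are the replicates, lines the group means and bars the SD of 3 libraries. HSD11B1 is highest in LPS (115.5 to 121.3 CPM) and lowest in CEL (2.21 to 3.06 CPM), TSC22D3 is highest in CEL (109.5 to 121.9 CPM), and CE 2 stands above the other CE libraries for KLF9 (28.0 CPM).

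HSD11B1 lies on chromosome 1, at chr1:209686178-209734950 on the plus strand (GENCODE release 29 on GRCh38). The antisense gene HSD11B1-AS1 overlaps it, and the strand setting of the counting is not given. That antisense gene held 0.34 CPM in NC, 0.43 in LPS, 0.34 in CE and 0.22 in CEL on average, so it did not carry comparable signal. RefSeq lists 1 start site for HSD11B1, while GENCODE release 29 has 4 transcripts with 4 distinct starts. Only the window at the RefSeq start was searched, so other promoters of the gene were not examined. The stretch before it is shown because this gene had the largest changes, and it is followed by the stretch before the third of 4 start sites of TSC22D3, the member with the largest rise. Capitals mark a match to a searched motif, and bases that an annotated exon covers are left out.
HSD11B1 upstream, chr1:209685929-209686177 (GRCh38.p14, plus strand): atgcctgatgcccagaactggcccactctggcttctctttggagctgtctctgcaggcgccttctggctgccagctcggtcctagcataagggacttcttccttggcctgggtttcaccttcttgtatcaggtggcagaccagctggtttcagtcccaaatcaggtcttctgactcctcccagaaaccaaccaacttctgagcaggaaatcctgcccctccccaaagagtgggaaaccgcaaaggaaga
TSC22D3 upstream, chrX:107717136-107717312 (GRCh38.p14, minus strand): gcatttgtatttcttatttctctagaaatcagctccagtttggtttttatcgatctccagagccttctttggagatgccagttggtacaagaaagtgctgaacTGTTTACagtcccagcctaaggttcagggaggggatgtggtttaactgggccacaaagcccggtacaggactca

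The searched motifs were the palindromic glucocorticoid receptor element, its single arm AGAACA, the forkhead motif TGTTTAC, the cAMP response element TGACGTCA with its part TGACG, the E-box motif CACGTG and the C/EBP motif TTGCNNAA, on both strands of windows from 250 bases before to 50 after each RefSeq start. The 6 genes have 16 such windows, of which NR3C1 has 7. The HSD11B1 window held no match to any of these motifs, and neither did that of KLF9. Before the third TSC22D3 start, TGTTTAC begins at -147 from the start site, and TGACG at -60 and -50, in the exonic part that is not printed. With windows numbered along the direction of transcription, windows 2 and 4 of TSC22D3 hold 1 TGACG each. TGTTTAC also begins at -59 from the last of the NR3C1 starts, NR3C1 windows 2, 3 and 6 hold 1 TGACG each, and window 3 also holds TTGCNNAA. For FKBP5, AGAACA begins at position 1 of the first start, and CACGTG at -227 from the second. In the PER1 window CACGTG begins at -173 and TTGCNNAA at -30. Across all 35116 windows of that length, AGAACA occurs in 14.8%, TGTTTAC in 3.42%, TGACG in 24.6%, TGACGTCA in 1.85%, CACGTG in 7.26% and TTGCNNAA in 10.5%, and the full receptor element in 1 window (0.00285%). These matches describe letters in short windows and are not binding sites.

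The enzymes and carriers around HSD11B1 moved in several directions. The list of 17 other cortisol-handling genes had 10 tested members. Of these, 5 were higher and 2 lower in LPS than in NC (median log2 0.77, against -0.01 over all genes). The shares over all genes were 22.4% higher and 23.5% lower. SRD5A1, a steroid 5-alpha reductase, was 30.0 ± 0.97 CPM in LPS against 4.87 ± 0.16 in NC (SD, n = 3, 6.15-fold, edgeR adjusted p = 1.5e-08). The aldo-keto reductases AKR1C1 and AKR1C2, which also reduce steroids, were 2.99-fold and 3.31-fold higher. STAR, which carries cholesterol into mitochondria for steroid synthesis, was 1.71 ± 0.17 CPM in LPS against 34.1 ± 0.68 in NC, 19.9-fold lower (edgeR adjusted p = 9.62e-09).

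In CE against LPS the same list had 2 higher, 4 lower and 4 not passing (median log2 -0.12, against 0.08 over all genes). Of all genes tested, 28.8% were higher and 20.7% lower. Over 16 alternatives 0 to 3 of the list were higher and 1 to 4 lower. AKR1C3 fell from 21.1 ± 1.41 to 12.1 ± 0.78 CPM (1.74-fold, edgeR adjusted p = 3.66e-05), and SLC37A4, which brings glucose 6-phosphate to H6PD, from 10.0 ± 0.69 to 7.01 ± 2.02 CPM (1.43-fold, adjusted p = 0.0277). SRD5A3 was 1.25-fold higher. In CEL against CE, 5 of the 10 were lower and 0 higher (0 also at an unadjusted p under 0.05 in edgeR and after adjustment in DESeq2 and limma). The lower ones included AKR1C2 (1.93-fold), AKR1C3 (1.87-fold), SLC37A4 (1.67-fold) and STAR (1.92-fold, at 0.38 against 0.73 CPM). That count of 5 ranged from 1 to 5 over 15 alternatives, and 14.8% of all genes were lower. The CE mean of SLC37A4 was raised by CE 2, at log2 CPM 3.22 against 2.72 in CE 1 and 2.43 in CE 3. Its CEL libraries held 2.25, 2.02 and 2.01. H6PD itself was barely detected, at group means of 0.21 to 0.39 CPM, and HSD11B2, which runs the opposite reaction, held 1 to 3 counts per group.

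Known regulators of HSD11B1 mostly had low levels in these libraries, and how well their transcripts were recovered was not tested. Of 6 listed factors 5 were tested, and 0 passed in LPS against NC by edgeR or by any of the 16 alternatives, DESeq2 and limma included, while 1 was higher at an unadjusted p under 0.05. Mean CEBPA was 1.43 CPM without treatment and 0.89 CPM in LPS, and mean CEBPB 0.53 and 0.70. NR1H3, the oxysterol receptor LXR-alpha, fell from 4.63 ± 0.33 CPM in LPS to 2.20 ± 0.56 in CE (2.1-fold, edgeR adjusted p = 0.000686). PPARG, the lipid-sensing nuclear receptor, fell from 5.70 ± 0.48 CPM in CE to 3.77 ± 0.10 in CEL (1.51-fold, edgeR adjusted p = 0.0105). It was the 1 lower call of the list in that comparison, where 14.8% of all genes were lower. That count ranged from 0 to 1 over 15 alternatives and was 1 in 7 of them.

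Some markers of other tissues that express HSD11B1 were, like it, highest in LPS and lower in CE and CEL, but unlike it they stayed above their NC level in CE and CEL. The summed level of 8 hepatocyte and adipocyte markers was 1.69 to 2.12 CPM in NC, 134 to 138 in LPS, 14.6 to 15.9 in CE and 6.55 to 8.77 in CEL. Nearly all of it was SERPINA1, which monocytes also express: the other 7 markers summed to at most 0.601 CPM in any library, and ADIPOQ was at 0 in all 12. The 6 fibroblast markers summed to 0.171 to 0.623 CPM in NC, 65.7 to 77.6 in LPS, 3.76 to 5.61 in CE and 2.34 to 3.41 in CEL. That sum was almost entirely LUM and DCN, and the other 4, the collagens COL1A1, COL1A2 and COL3A1 with PDGFRB, summed to at most 1 CPM in any library. None of the 6 was at 0 over a whole group, and the part of these genes in the HSD11B1 pattern was not tested.

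NR3C1, the receptor, was higher under both drug combinations. In NC its libraries held 123.7, 119.2 and 124.1 CPM, and in LPS 177.8, 179.6 and 156.4 CPM. In CE they held 400.7, 370 and 406.6 CPM, and in CEL 349.3, 358.4 and 386.3 CPM. NC was lowest and LPS next, with no overlap, while the ranges of CE and CEL overlapped. The change was log2 0.49 ± 0.06 for LPS against NC, 1.20 ± 0.06 (2.29-fold) for CE against LPS and 1.09 ± 0.06 (2.13-fold) for CEL against LPS. CEL and CE differed by log2 -0.11, with a 95% interval of -0.24 to 0.03, which did not pass. Against NC the receptor's RNA was 3.21-fold higher in CE and 2.98-fold higher in CEL. The gene lies at chr5:143277931-143435512 on the minus strand, and none of these calls changed under the alternatives.

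**Figure D2:**
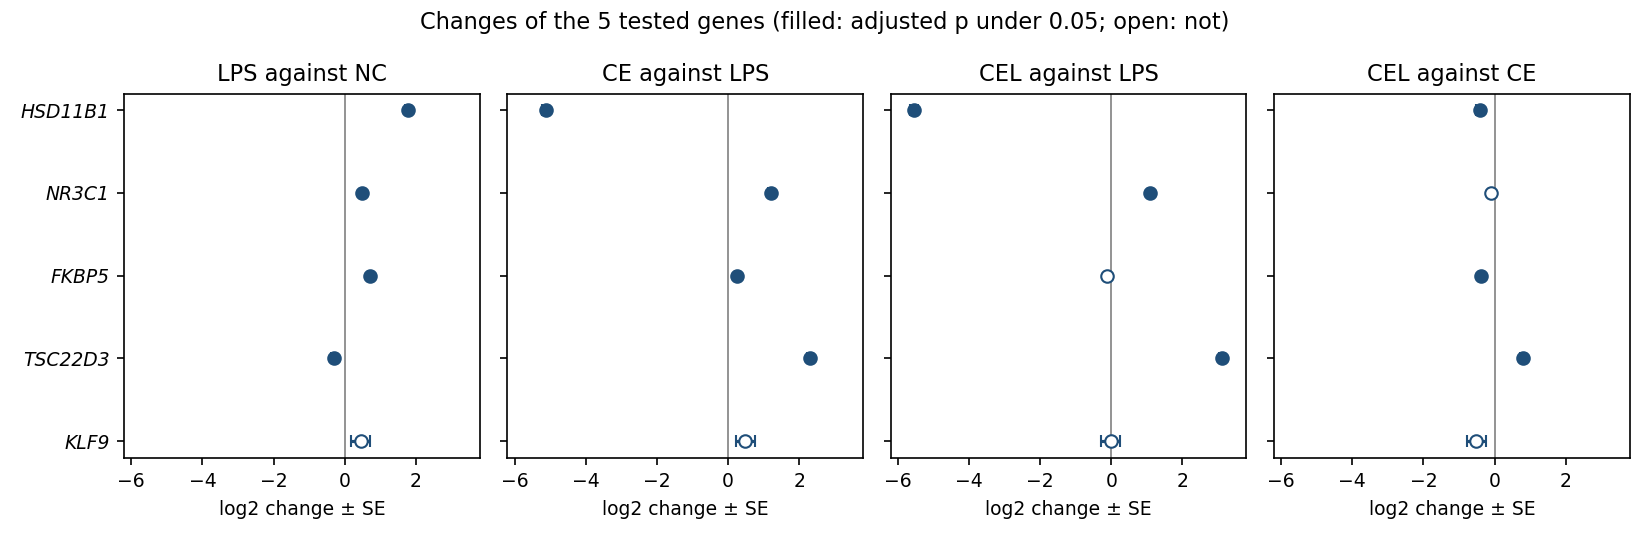
Log2 change ± SE (horizontal axis) of the 5 tested genes in 4 comparisons; filled points have an adjusted p under 0.05 and open points do not. HSD11B1 lies at -5.12 and -5.55 in CE and CEL against LPS, while TSC22D3 lies at 2.32 and 3.12 and NR3C1 at 1.20 and 1.09.

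Chaperones and coregulators of the receptor did not move as one block. The list has 22 genes besides NR3C1 and FKBP5, all tested, of which 10 were higher and 2 lower in LPS than in NC (median log2 0.28). Over all genes 22.4% were higher and 23.5% lower. The coactivator NCOA3 rose from 47.0 ± 2.53 to 109.1 ± 2.47 CPM (2.32-fold, edgeR adjusted p = 6.13e-09), and NRIP1, a nuclear receptor corepressor, rose 1.94-fold. DNAJA1, an HSP40 protein, rose 1.52-fold, and BAG1, a partner of HSP70, fell 1.56-fold.

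In CE against LPS, 7 of the 22 were higher, 7 lower and 8 did not pass (median log2 -0.02, against 0.08 over all genes). Over all genes 28.8% were higher and 20.7% lower. The members that fell most were chaperones. HSPA8, the constitutive HSP70, fell from 4057 ± 112 to 1037 ± 103 CPM (3.91-fold, edgeR adjusted p = 9.24e-09), and FKBP4, the co-chaperone that FKBP5 competes with, fell from 63.3 ± 1.65 to 31.7 ± 2.25 CPM (1.99-fold, edgeR adjusted p = 4.45e-07). HSP90AA1 and HSP90AB1, named here after their values were seen because they hold the receptor, were 1.66-fold and 1.67-fold lower. The coactivators NCOA2 and NCOA3 rose 2.04-fold and 1.97-fold. With upper quartile scaling or other alternatives the numbers ranged from 3 to 8 higher and from 5 to 11 lower. CEL differed from CE at 3 of the 22: NCOA1 (1.23-fold) and NCOA3 (1.18-fold) were higher and NRIP1 (1.26-fold) was lower. Over 15 alternatives 0 to 7 were higher and 0 to 2 lower. Of all genes, 23.6% differed between CEL and CE.

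Among related steroid receptors, the mineralocorticoid receptor NR3C2, which also binds cortisol, held 0.08 to 0.23 CPM, PGR 0.27 to 0.49 and ESR1 0.05 to 0.14 CPM as group means.

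**Figure D3:**
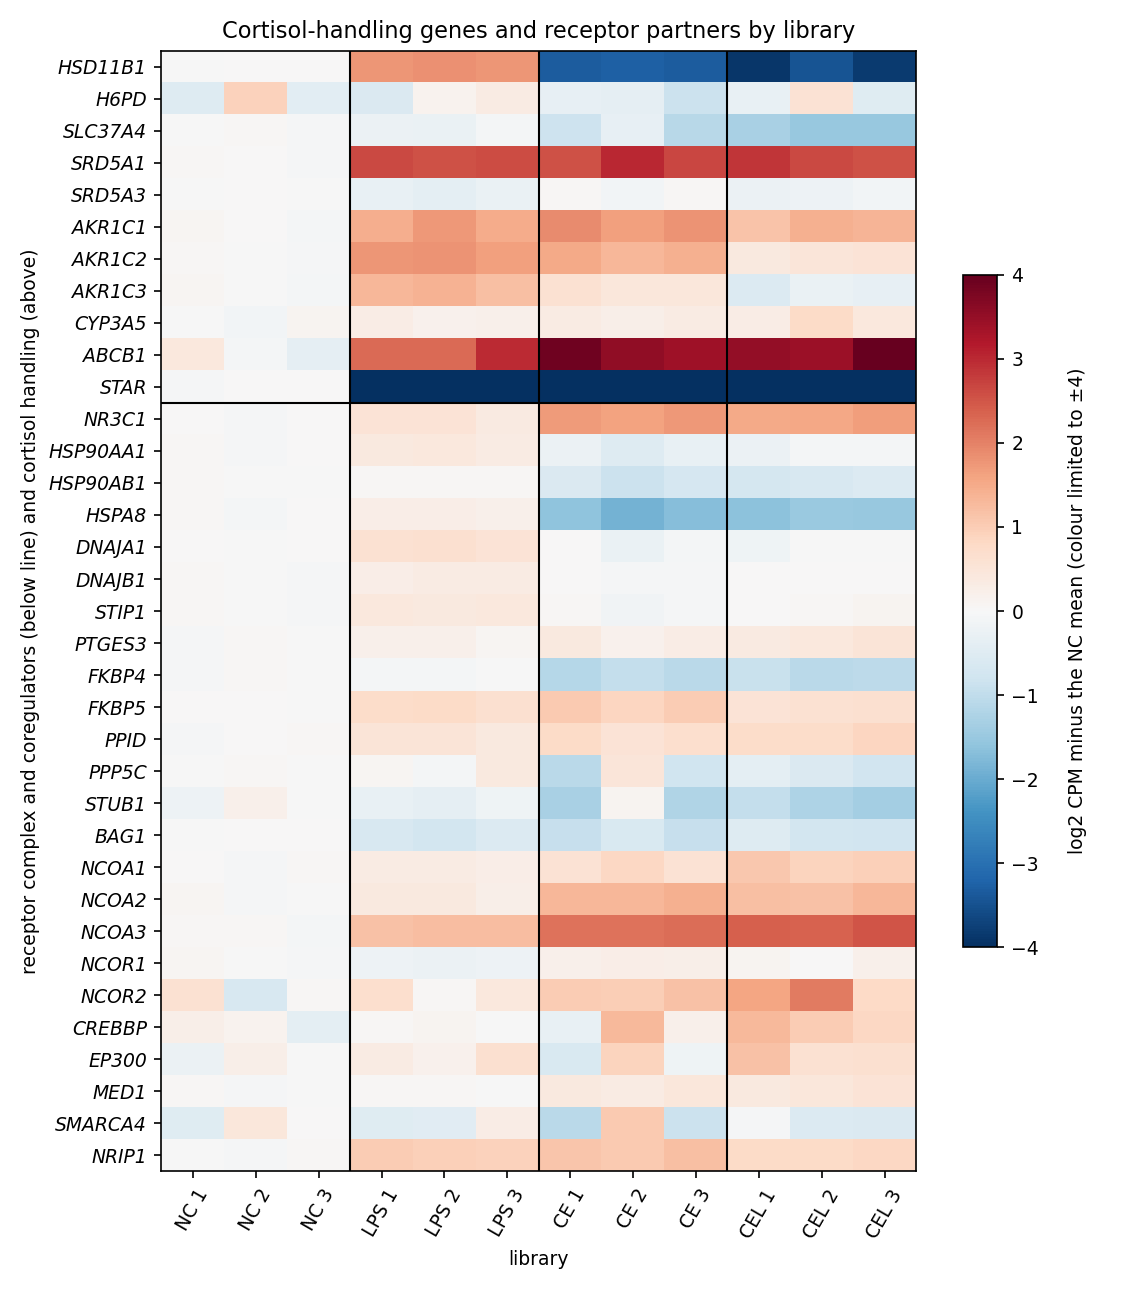
Colour gives log2 CPM minus the NC mean, limited to ±4, for the cortisol-handling genes (above the line) and for the receptor with its chaperones and coregulators (below) in the 12 libraries. HSPA8 and FKBP4 are blue in CE and CEL, NCOA3 and NR3C1 are red, and PPP5C, STUB1 and SMARCA4 differ between CE 2 and the other CE libraries.

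FKBP5, the receptor target that feeds back on it, had the highest level of the 6 in NC, LPS, CE and CEL on the TPM scale, which corrects for transcript length, with means of 71.5, 129.9, 157.7 and 126.7. In LPS its TPM range (103.5 to 145.5) overlapped that of HSD11B1 (92.3 to 135.2). In CPM the libraries held 230.2, 229.9 and 225.5 in NC and 379.4, 392.3 and 356.4 in LPS. CE held 472.7, 414.6 and 462.6 CPM, and CEL 335.9, 346.8 and 353.5 CPM. The order from the lowest was NC, CEL, LPS and CE, with no overlap, though the gap between CEL and LPS was only from 353.5 to 356.4 CPM. LPS exceeded NC by log2 0.72 ± 0.05 (1.65-fold).

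Differences of FKBP5 between the LPS, CE and CEL groups were small. The difference of CE from LPS was log2 0.26 ± 0.05, and this call was lost under 7 of 16 alternatives: with upper quartile factors, which shift the median of all genes by -0.17 in that comparison, it was 0.09. CEL against LPS did not pass, at log2 -0.12 with an interval of -0.24 to -0.01, and passed in 4 of 16 alternatives. CEL was below CE by log2 0.38 (change -0.38 ± 0.05), a call lost only with limma on TPM. FKBP5 lies at chr6:35573585-35728583 on the minus strand.

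Other genes of the FKBP family, which includes peptidyl-prolyl isomerases that bind FK506, changed in both directions. Of 14 listed, 11 were tested, with 2 higher and 3 lower in LPS against NC, and 4 higher and 5 lower in CE against LPS. The shares over all genes were 22.4% higher and 23.5% lower in LPS against NC, and 28.8% and 20.7% in CE against LPS. Over 16 alternatives 1 to 3 of the family were higher and 0 to 3 lower in LPS against NC. In CE against LPS 2 to 4 were higher and 2 to 6 lower. FKBP15, linked to endosome transport, rose 1.94-fold in LPS and a further 1.64-fold in CE, to 154.7 ± 2.00 CPM (edgeR adjusted p = 9.95e-08 for CE against LPS). FKBP7 fell in both comparisons, by 1.78-fold and 2.22-fold, and FKBPL fell 1.77-fold in CE. Of the 3 lower calls in CEL against CE (FKBP1A, FKBP3 and FKBP9), 0 to 2 passed in the alternatives.

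TSC22D3 went in the opposite direction to HSD11B1 in every comparison between these groups. In NC the libraries held 16.5, 16.0 and 17.8 CPM, and in LPS 13.4, 13.0 and 14.1 CPM. In CE they held 74.3, 60.5 and 67.2 CPM, and in CEL 109.5, 120.2 and 121.9 CPM. No group overlapped another, and the order from the lowest was LPS, NC, CE and CEL. The difference of LPS from NC was log2 -0.31 ± 0.08, and this call was lost under 6 of 16 alternatives, for example without NC 3 and LPS 1 (log2 -0.30).

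Under the drugs TSC22D3 was 4.99-fold higher in CE than in LPS (log2 2.32 ± 0.08) and 8.68-fold higher in CEL than in LPS (log2 3.12 ± 0.09). CEL exceeded CE by 1.74-fold (log2 0.80 ± 0.08), and every alternative kept that call, with values from 0.72 to 0.95. It exceeded NC by 4.02-fold in CE and 6.99-fold in CEL. TSC22D3 lies at chrX:107713221-107777342 on the minus strand, where NCBP2L overlaps on the opposite strand with at most 1 count in any group. Of the 3 other TSC22 genes, TSC22D2 was 1.91-fold higher in CE than in LPS, at 3.94 ± 0.79 CPM, and 1.67-fold higher in CEL than in CE, while TSC22D1 fell 1.45-fold in LPS against NC. In the alternatives 0 to 2 of them passed in CE against LPS.

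KLF9 was low, and 1 CE library stood apart from the others. Its libraries held 8.39, 10.9 and 8.85 CPM in NC, 13.0, 10.8 and 14.4 in LPS, 12.1, 28.0 and 13.8 in CE, and 13.4, 11.3 and 13.1 in CEL. The value in CE 2 was above all others, and LPS overlapped NC, CE and CEL. KLF9's longest transcript has a GC share of 46.3%, near the middle of all genes, and the part of the GC pattern of CE 2 in this value was not tested. The log2 change was 0.45 ± 0.27 for LPS against NC, 0.49 ± 0.27 for CE against LPS, -0.02 ± 0.27 for CEL against LPS and -0.51 ± 0.27 for CEL against CE, none of which passed. Without CE 2, CE against LPS was 0.03 and CEL against CE -0.04. CE against NC passed at 0.94 ± 0.27, and without CE 2 at 0.49. KLF9 lies at chr9:70384597-70414624 on the minus strand.

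Among the other tested Krüppel-like factors, the zinc finger family to which KLF9 belongs, more were higher than lower under the drugs. Of 17 listed, 10 were tested, and in CE against LPS 6 were higher, 0 lower and 4 did not pass (median log2 0.96, against 0.08 over all genes). At an unadjusted p under 0.05 edgeR had 0 lower, and DESeq2 and limma had 0 lower after adjustment. The number higher was 6 or 7 in all 16 alternatives. By comparison, 28.8% of all genes were higher and 20.7% lower. KLF10, a TGF-beta-inducible repressor, rose from 34.7 ± 2.90 to 162.7 ± 11.7 CPM (4.68-fold, edgeR adjusted p = 2.75e-09). KLF6 rose 3.02-fold, to 269.2 ± 3.97 CPM, KLF11 3.19-fold and KLF12 2.18-fold. In CEL against CE, KLF10 rose again, to 294 ± 18.8 CPM (1.81-fold, edgeR adjusted p = 1.43e-05), KLF6 1.28-fold and KLF3 1.30-fold, while KLF7 fell 1.27-fold. LPS against NC had 3 higher and 2 lower, led by KLF6 at 2.89-fold. The shares over all genes were 22.4% and 23.5%, and over 16 alternatives 1 to 4 of the family were higher and 0 to 2 lower.

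PER1 was close to absent. Its libraries held 10, 4 and 4 counts in NC, 3, 4 and 3 in LPS, 0, 7 and 2 in CE, and 10, 15 and 4 in CEL. The group sums of 18, 10, 9 and 29 counts correspond to mean levels of 0.28, 0.16, 0.14 and 0.47 CPM, with ranges that overlap for each pair of groups except LPS and CEL. It was filtered out for low counts, so no difference was tested. Its transcript is GC-rich, at 62.7%, and 7 of the 9 CE counts were in CE 2. PER1 lies at chr17:8140472-8156506 on the minus strand.

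Of 19 listed clock genes other than PER1, 18 were tested, with 6 higher and 1 lower in LPS against NC, and 5 higher and 1 lower in CE against LPS. Over all genes, 22.4% were higher and 23.5% lower in LPS against NC, and 28.8% and 20.7% in CE against LPS. BHLHE40, a clock repressor that also responds to hypoxia, rose from 4.90 ± 0.30 CPM in NC to 30.5 ± 0.59 in LPS (6.24-fold), 160.2 ± 2.59 in CE (5.25-fold over LPS) and 221.4 ± 3.65 in CEL (1.38-fold over CE, edgeR adjusted p = 2.6e-05). NR1D2, the repressor REV-ERB-beta, rose from 33.0 ± 3.44 CPM in LPS to 221.9 ± 6.87 in CE (6.73-fold, edgeR adjusted p = 1.03e-09). BMAL1, the activator of the clock, rose 1.84-fold in CE, and PER3, a relative of PER1, fell 1.84-fold, from 4.08 to 2.21 CPM. NFIL3, a repressor of clock output genes, rose 3.1-fold in LPS and 1.22-fold in CEL against CE.

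Further known targets of the receptor gave a mixed picture. Of 28 listed genes 24 were tested. In LPS against NC, 17 were higher, 4 lower and 3 did not pass (median log2 1.31, against -0.01). The shares over all genes were 22.4% higher and 23.5% lower. SGK1, a kinase that regulates ion transport, rose from 2.12 ± 0.38 to 118.8 ± 7.06 CPM (55.5-fold, edgeR adjusted p = 5.99e-12), BCL6, a transcriptional repressor, 14-fold, MT2A, a metallothionein, 6.5-fold, and NFKBIA, the inhibitor of NF-kB, 5.96-fold. Several of these genes also respond to NF-kB or metals, and the list does not separate such inputs.

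In CE against LPS, 8 of the 24 targets rose, 7 fell and 9 did not pass (median log2 0.15, against 0.08 over all genes). Of all genes tested, 28.8% were higher and 20.7% lower. SGK1 rose a further 4.21-fold to 500 ± 40.4 CPM, and the adenosine receptor ADORA3 rose from 3.28 ± 0.23 to 18.6 ± 1.72 CPM (5.66-fold, edgeR adjusted p = 2.94e-08). TIPARP, a mono-ADP-ribosyltransferase, rose 2.4-fold. THBD, the anticoagulant receptor thrombomodulin, fell from 24.5 ± 5.62 to 7.93 ± 2.85 CPM (3.08-fold, edgeR adjusted p = 0.000424). Over the alternatives 6 to 9 were higher and 5 to 9 lower. By rule, genes with a mean log2 CPM under 1 over the 12 libraries were not named. CD163, IL1R2 and MERTK, added after their values were seen, were such genes. They held 6.46, 8.65 and 3.15 CPM in LPS and 0.97, 0.18 and 0.81 in CE. PDK4, also under that limit, went the other way, from 0.575 to 1.485 CPM.

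The step from CE to CEL moved fewer targets, with 5 higher, 2 lower and 17 not passing. Over 15 alternatives 1 to 7 were higher and 0 to 4 lower. The share of all genes called was smaller as well, 23.6% against 49.6% in CE against LPS. TIPARP rose from 256.6 ± 20.7 to 550.7 ± 35.6 CPM (2.15-fold, edgeR adjusted p = 1.4e-06) and ERRFI1, an inhibitor of EGF receptor signalling, 1.41-fold. ADORA3 fell 1.53-fold and MT2A 1.38-fold. In CEL against LPS the list had 11 higher, 6 lower and 7 that did not pass, while 28.7% of all genes were higher and 27.2% lower.

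**Figure D4:**
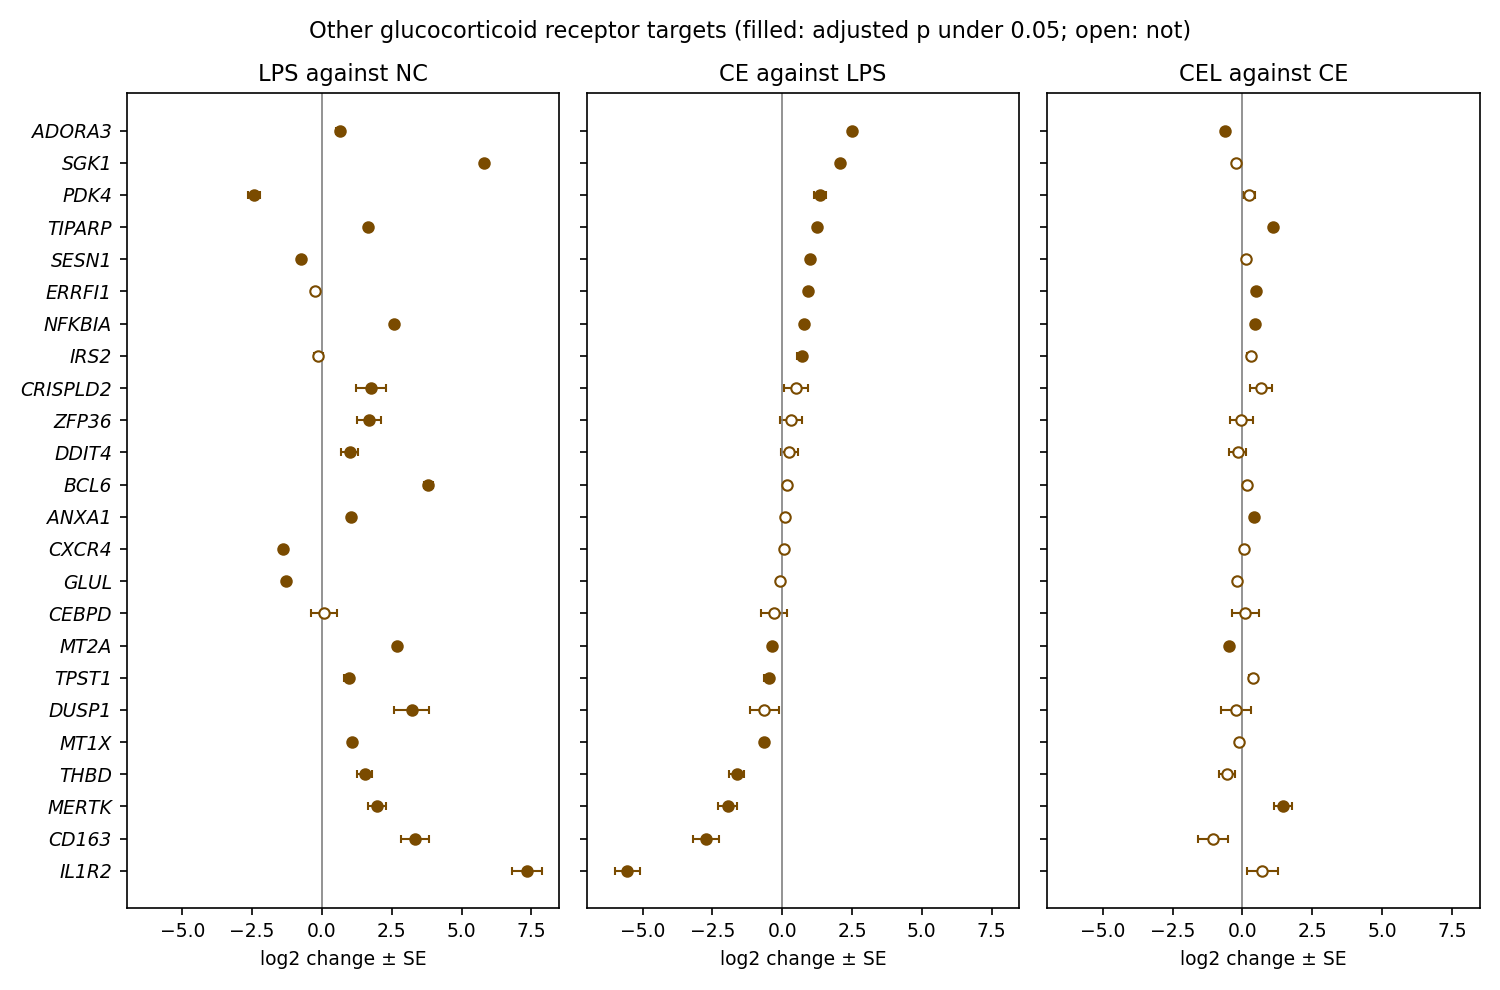
Log2 change ± SE (horizontal axis) of the 24 other tested receptor targets in 3 comparisons, ordered by CE against LPS; filled points have an adjusted p under 0.05. Most points lie to the right in LPS against NC (17 higher, 4 lower), while CE against LPS has 8 higher and 7 lower, from ADORA3 at the top down to IL1R2, a decoy receptor for interleukin-1 that LPS cells held at 8.65 CPM.

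For each member the genes with the most similar pattern were taken by Pearson r of log2 CPM over the 12 libraries, among the 7339 genes whose mean log2 CPM reached 3. The 12 libraries share 4 treatments, so high values of r are common. For HSD11B1 they were PRICKLE1 (r = 0.995), CTPS1 (0.991), FCGR1A (0.987), KYAT3 (0.987) and POP1 (0.986). FCGR1A, the high-affinity IgG receptor, went from 99.3 CPM in NC to 195 in LPS, 36.7 in CE and 22.6 in CEL. CTPS1, a CTP synthase, went from 439 to 536, 301 and 303 CPM, a much narrower range than that of HSD11B1.

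NR3C1 was closest to TMF1 (r = 0.999), STAM2 (0.998) and MEF2A (0.998), the last at 45.1, 65.2, 184 and 167 CPM in NC, LPS, CE and CEL. TSC22D3 was closest to SOCS6 (0.997), a suppressor of cytokine signalling at 36, 31.9, 73.2 and 105 CPM, then ABITRAM (0.995) and SARAF (0.995). FKBP5 was closest to NEDD4 (0.99), TRIM21 (0.987) and RESF1 (0.984). KLF9 was closest to PROSER1 (0.963), INPP5D (0.946) and MTHFD1L (0.939). HSD11B1 and NR3C1 themselves had r = -0.857 over the same libraries. With TSC22D3 HSD11B1 had r = -0.967, with FKBP5 -0.349 and with KLF9 -0.352. These values are given as a description with no test.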

How the data were processed

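Sequenced RNA was polyadenylated RNA enriched with oligo-dT, per the labels. The authors deposited estimated counts (29.3% of nonzero values are not whole within 0.005) and TPM values per gene, placed on hg38 per the submitters' processing notes. No source used here names the aligner, counting tool, strand setting or annotation. Of the deposited columns, 0 were left unmatched.

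Counts were rounded, filtered with filterByExpr (14065 genes kept) and scaled by TMM. All 12 libraries entered 1 quasi-likelihood fit in edgeR 4.0.16 (R 4.3.3) with group as the term, with two-sided F-tests adjusted by Benjamini and Hochberg over all tested genes. The script was tested on simulated data. CPM use TMM-adjusted library sizes, ± is the SD over 3 libraries, and log2 changes carry an approximate SE. Totals of 17737240 to 23183474 counts per library limit precision for genes with few counts, such as PER1.

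The members and lists were chosen with earlier results of these data known. Genes named were the members, up to 4 called genes per list and comparison with the largest change whose mean log2 CPM reached 1, and the genes most like each member. A gene that this rule names is not reported here. Motifs were chosen after the data were seen. Coordinates are from GENCODE release 29, and upstream sequences from RefSeq (GRCh38.p14).

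Alternatives were other scalings, no filter, a replicate block, only the 2 groups compared, DESeq2 1.42.0, limma 3.58.1 on log2(TPM + 1) or log2(TPM + 0.1), and leaving out libraries. The labels give the batch as the replicate number, so numbers could pair samples. Over 7460 genes, deviations from the group mean correlated at r over 0.1 in 6 of 18 same-numbered pairs (-0.857 to 0.728, median -0.186), and 1 library correlated best with its own number.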

Additional observations from a re-analysis of the deposited data

How the results depend on the processing

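All HSD11B1, NR3C1 and TSC22D3 calls for CE and CEL against LPS and against NC held in all alternatives run. For HSD11B1 in CEL against CE the log2 change was -0.38 with relative log expression factors, library size alone or DESeq2, -0.37 with only the 2 groups, and -0.28 or -0.35 with limma (pseudocount 1 or 0.1), none passing. Leaving out libraries gave -0.52 to -0.29. FKBP5 in CE against LPS did not pass with upper quartile factors (0.087), library size alone (0.10), no filter (0.23), limma (0.29 and 0.30) or without NC 3 and LPS 1 (0.23, added after seeing the data), and leaving out 1 library gave 0.19 to 0.33. That FKBP5 call was also lost without CE 3 alone (0.22). In CEL against LPS FKBP5 passed at -0.26, -0.23 and -0.14 with upper quartile factors, library size alone and only the 2 groups. Without 1 library it ranged from -0.15 to -0.049, passing without LPS 3 (-0.15). In CEL against CE it did not pass with limma (-0.31 and -0.32). TSC22D3 in LPS against NC did not pass without a filter (-0.25) or with limma (-0.18 and -0.19). Its call was also lost without NC 3 and LPS 1 together (-0.30), NC 3 alone (-0.29) or LPS 2 alone (-0.30). Without 1 library the change ranged from -0.34 to -0.29. KLF9 passed at 0.51 (no filter) and 0.47 (only the 2 groups) in LPS against NC, at -0.53 (no filter) in CEL against CE and at 0.41 (only the 2 groups) in CEL against NC. In CEL against LPS it changed sign with limma (0.065 and 0.087), ranging from -0.080 to 0.10 without 1 library, and in CE against LPS from 0.031 to 0.66, passing without CE 1 (0.66). The cause of these differences was not tested.

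Genes called numbered 1710 (only the 2 groups), 266 and 225 (limma) in CEL against CE, instead of 3321, and 2120 to 4066 without 1 library. With limma they were 2963 and 2951 in LPS against NC, 3586 and 3545 in CE against LPS, and 4984 and 4978 in CEL against LPS. LPS against NC gave 4305 without NC 3 and LPS 1. Upper quartile factors turned the split in CE against LPS from 4057 higher and 2915 lower to 2945 and 4000. In LPS against NC they gave 2604 and 4387 instead of 3152 and 3306. For CE against NC they gave 3571 and 5646 instead of 4869 and 4139. For CEL against NC they gave 3828 and 5805 instead of 4778 and 4647. For CEL against LPS they gave 3294 and 4590 instead of 4039 and 3828. With library size alone the split was 3040 and 3833 in CE against LPS and 3381 and 4383 in CEL against LPS. That scaling gave 4101 and 4954 in CE against NC and 4283 and 5141 in CEL against NC. The replicate block gave 5992, 6558, 7537, 2803, 8644 and 9185 genes in LPS against NC, CE against LPS, CEL against LPS, CEL against CE, CE against NC and CEL against NC, and changed no call of a member. For example, HSD11B1 in CE against LPS was -5.12 with the replicate block. Low counts limit HSD11B1 in CE and CEL (43 to 72 per library) and PER1 throughout.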

Other observations

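Against untreated cells, other receptor targets were mostly higher in CE and CEL, which also received LPS and ATP. In LPS, without drugs, 17 of the 24 were already higher and 4 lower, with a median log2 change of 1.31. Of 24 tested, 16 were higher and 3 lower in CE, and 18 higher and 3 lower in CEL, with median log2 changes of 0.92 and 1.33 against 0.087 and 0.0037 over all genes. SGK1 stood at 500 ± 40.4 CPM in CE against 2.12 ± 0.38 in NC (edgeR adjusted p = 7.42e-13), and TIPARP at 550.7 ± 35.6 CPM in CEL against 34.0 ± 0.78 in NC (edgeR adjusted p = 3.16e-12). In LPS, SGK1 held 118.8 ± 7.06 CPM and TIPARP 107 ± 5.91 CPM. In the Krüppel-like family, 7 of 10 tested genes were higher and 0 lower in each of CE and CEL against NC, with 0 lower also at an unadjusted p under 0.05 in edgeR and by DESeq2 and limma. KLF6 was 8.73-fold higher in CE and 11.2-fold higher in CEL. In LPS against NC, 3 of the family were higher and 2 lower, with KLF6 2.89-fold higher. Among clock genes, 9 of 18 were higher and 2 lower in CE, and 8 higher and 3 lower in CEL. In LPS against NC, 6 of them were higher and 1 lower. Over all genes, 34.6% were higher and 29.4% lower in CE, and 34.0% and 33.0% in CEL. The shares in LPS against NC were 22.4% and 23.5%.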
